A study of Mus musculus with 27 samples.

Results

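Periportal assembloids kept for 2.5 weeks under homeostatic conditions were compared by bulk RNA-seq with freshly isolated mouse hepatocytes, the cell type from which their organoids are grown. The 3 assembloid libraries and the 3 hepatocyte libraries were taken by their titles and make up 6 of the 27 libraries of the series. Of 21850 rows in the count table, 12688 genes had enough counts to be tested. An assembloid of this kind was formed by rocking 10 HepOrgs (hepatocyte organoids), 1000 cholangiocytes and 250 portal mesenchymal cells per well and was then kept in Matrigel for 18 days in MM, a minimal medium that holds Wnt-conditioned medium, N-acetylcysteine and a ROCK inhibitor. The hepatocytes came straight from collagenase-perfused livers and were not cultured. The labels give C57BL/6 as the strain of all 6 libraries and WT as the genotype of 5 of them, while hepatocyte replicate 3 is titled WT and labelled MDR2-het. The methods add that the mice were adults of both sexes and that cholangiocytes had been expanded as organoids. HepOrgs were passaged in HM-Wnt, an expansion medium, before assembly. In general, cholangiocytes carried a tdTomato reporter in the nucleus, and mesenchymal cells came from Pdgfra H2B-GFP mice and were sorted for SCA1. The methods do not name the reporter lines of the bulk libraries. The age of the mouse behind each library is not given in the labels. No endothelial cell, macrophage or stellate cell was added to the assembloids, which limits them as a model of whole tissue, and every value is from whole structures, so that fewer cells of a type and less RNA per cell cannot be told apart.

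Hepatocytes make most plasma proteins, detoxify nitrogen through the urea cycle, turn cholesterol into bile acids and oxidise drugs with cytochrome P450 enzymes. These tasks are shared out along the lobule, with urea synthesis and gluconeogenesis strongest around the portal vein and P450 enzymes strongest around the central vein. The portal tract also holds bile ducts lined by cholangiocytes and the fibroblasts that surround them, and these are the cells that an assembloid adds to a hepatocyte organoid.

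Total counts per library were 41536735 to 57472382 in the assembloids and 34082074 to 53113534 in the hepatocytes, and 14016 to 15375 and 14456 to 14677 genes had a count. The 10 most abundant genes took 22.5 to 27.6% of the counts in the assembloids and 17.9 to 19.3% in the hepatocytes, and mitochondrially encoded genes took 1.93 to 2.40% and 4.11 to 5.03%. Pearson's r of log2(CPM + 1) across genes was 0.988 to 0.994 among the assembloid libraries, 0.972 to 0.988 among the hepatocyte libraries and 0.913 to 0.929 between the groups. The first principal component held 77.9% of the variance and separated the groups, and the second held 10.8% and set hepatocyte replicate 2 (73.8) against hepatocyte replicate 1 (−56.7). Hepatocyte replicate 2 also held the most RNA of immune marker genes, 739.5 counts scaled to library size (CPM, counts per 1e6) summed over 20 genes against 72.4 and 285.2 in replicates 1 and 3, so values without it are given where it moves a result. Labels do not say that replicates are separate animals, and p values then measure only the spread between these libraries.

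Between the groups, 4725 of 12688 genes (37.2%) passed the threshold of an edgeR adjusted p under 0.05, of which 2349 (18.5% of those tested) were higher and 2376 (18.7%) lower in the assembloids. A fold of at least 2 was reached by 1658 of the higher and 1592 of the lower genes, and a fold of at least 16 by 518 and 386. In 6819 genes (53.7%) the 3 libraries of the groups did not overlap, and for 4678 genes (36.9%) the 95% interval of the log2 fold change lay within −1 and 1. The median log2 fold change over all genes tested was 0.0106. Without hepatocyte replicate 3, the library labelled MDR2-het, 3495 genes passed (1609 higher and 1886 lower), and without assembloid replicate 1 or 2 the number was 3063 or 3105. The split depended on the scaling: 49.7% of the calls were higher with TMM, 68.0% with library totals alone (3396 higher and 1601 lower, all genes shifted by 0.295) and 77.9% on log2(TPM + 1) (3378 and 961, shifted by 0.341). Fits that take 1 spread from 15 libraries (all 12 assembloid libraries and the hepatocytes) or from all 27 passed 681 and 1930 genes, and 3950 and 4949 genes when 1 library of the 1-week assembloids with counts in only 8465 genes was left out. All values below use TMM and are CPM, listed for replicates 1, 2 and 3 in that order. Levels of different genes are not compared, since CPM is not corrected for length.

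**Figure D1:**
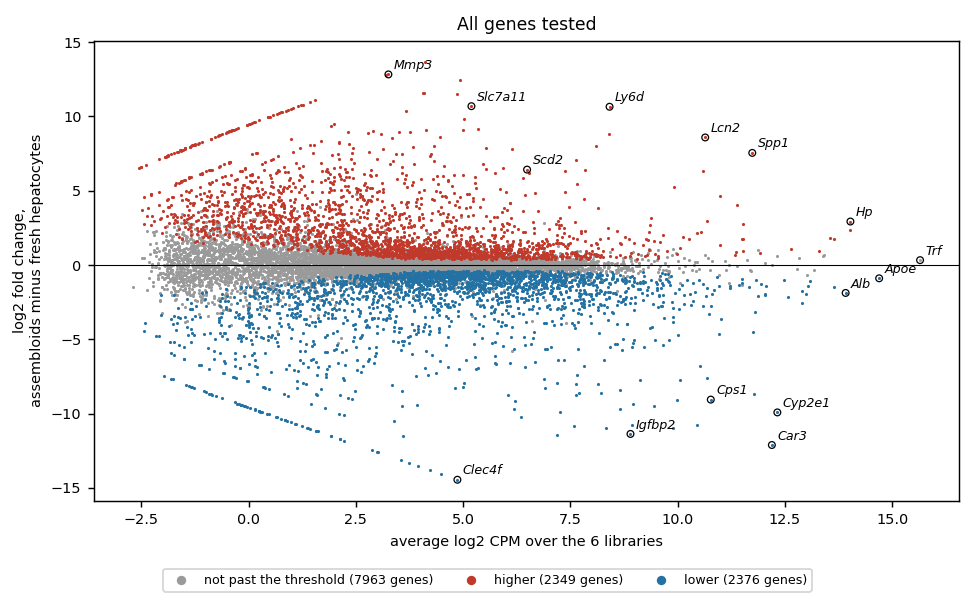
Each point is 1 of the genes tested, with its average log2 CPM over the 6 libraries on the x axis and its log2 fold change (assembloids minus fresh hepatocytes) on the y axis. The 2349 higher genes are red, the 2376 lower genes blue and the 7963 genes not past the threshold grey, and circles mark named genes, with Mmp3, Slc7a11 and Ly6d far above 0 and Clec4f, Car3 and Igfbp2 far below it.

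Genes were grouped in 44 lists by cell type, function or pathway, which hold 764 genes, 758 of them in the table and 703 tested. The counts per list given below stand beside the 37.2% of all genes tested that passed, 18.5% higher and 18.7% lower. Most lists for work done by hepatocytes leaned lower, with medians of −3.58 for amino acid breakdown, −2.64 for P450 genes and −0.89 for plasma carriers. Among lists that leaned higher, the median was 6.09 for cholangiocyte genes, 2.86 for portal fibroblast genes and 1.57 for p53 target and senescence genes. The lists for endothelial genes and for Kupffer cell and other immune genes had fitted medians of −6.91 and −11.03. These were −5.90 and −7.45 with genes at no more than 3 counts in every library of 1 group set to a bound.

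**Figure D2:**
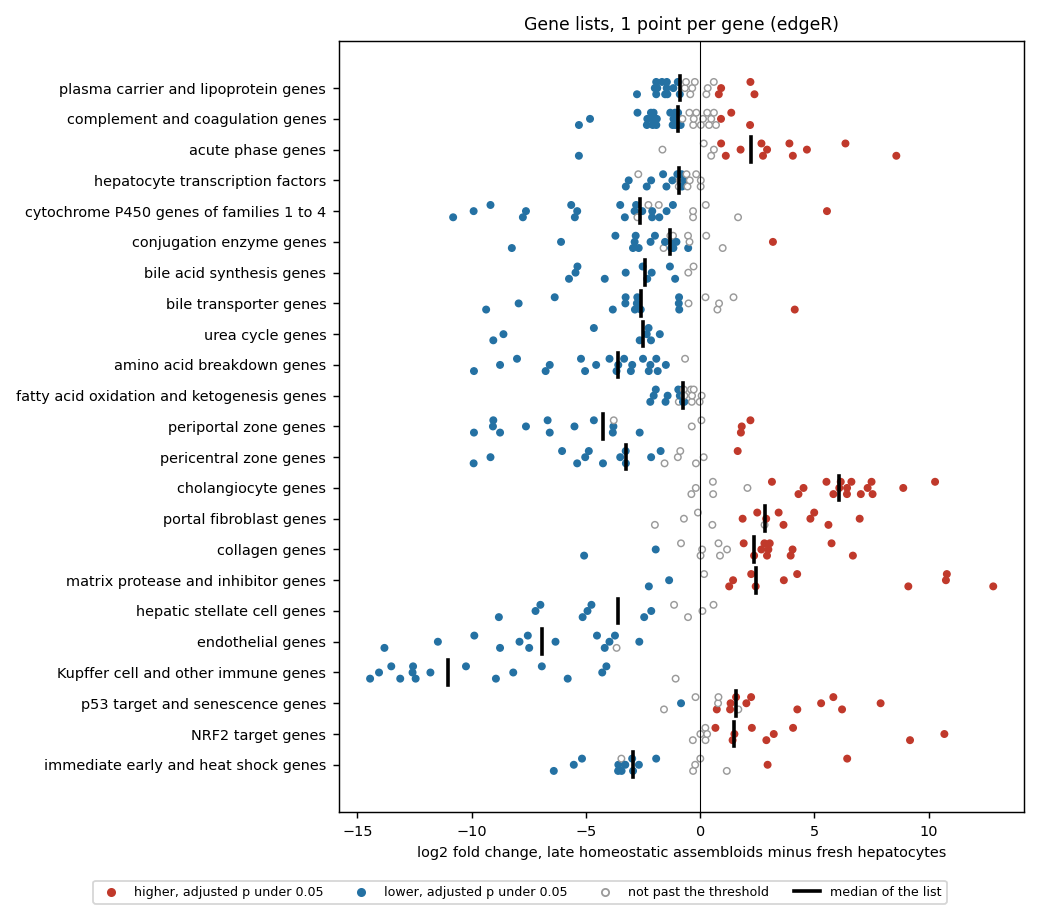
Each point is 1 tested gene of a list, placed by its log2 fold change (assembloids minus fresh hepatocytes, x axis). Red points were higher and blue points lower at an edgeR adjusted p under 0.05, open points did not pass, and the black bars are list medians, which run from −11.03 for Kupffer cell and other immune genes to 6.09 for cholangiocyte genes. With genes at no more than 3 counts in every library of 1 group set to a bound, these were −7.45 and 5.83.

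The 2 reporter genes checked what was put into the assembloids. tdTomato had 86, 52 and 2224 counts and eGFP 24, 33 and 855 counts in assembloid replicates 1, 2 and 3, and neither had a count in any hepatocyte library. Assembloid replicate 3 therefore held far more reporter reads than replicates 1 and 2.

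Bile duct genes were much higher in the assembloids: 16 of 21 tested cholangiocyte genes were higher and none was lower (median 6.09). The median was 5.83 with a bound for genes with at most 3 counts in every library of 1 group. The summed level of all 22 genes was 5487 to 8335 CPM against 53.9 to 154.8 CPM in the hepatocytes. Krt19, which encodes a keratin of duct cells (ENSMUSG00000020911, GRCm39 chr11:100031636-100039491), stood at 51.7, 36.9 and 29.5 in the assembloids and 0, 0.642 and 0.337 in the hepatocytes (log2 fold change 7.03, SE 0.86, edgeR adjusted p = 0.0016). Its partner Krt7 stood at 61.1, 24.98 and 24.9 against 0, 0.608 and 0.169 (log2 fold change 7.33, edgeR adjusted p = 0.0021). Both keratins were highest in assembloid replicate 1, not in replicate 3, and the groups lay far apart. Leaving out 1 library moved these folds without ending a call, to a log2 fold change of 6.36 without hepatocyte replicate 1 and 7.92 without hepatocyte replicate 2 for Krt19 and of 6.73 without assembloid replicate 1, 6.65 without hepatocyte replicate 1 and 8.82 without hepatocyte replicate 2 for Krt7. Spp1, the secreted phosphoprotein osteopontin (ENSMUSG00000029304, GRCm39 chr5:104582165-104589235), took most of the reads of the list, at 5084, 7239 and 8087 against 1.37, 90.7 and 17.2 (log2 fold change 7.55, SE 1.51, edgeR adjusted p = 0.0091). For Spp1 the log2 fold change was 9.52 without hepatocyte replicate 2. Cldn4, a claudin of tight junctions, was at 22.6, 12.7 and 5.58 against 0, 0.101 and 0, or 0, 3 and 0 counts (edgeR adjusted p = 0.0014), and Ezr, which ties apical membranes to actin, at 37.7, 30.4 and 21.9 against 4.74, 2.63 and 2.77 (log2 fold change 3.14, edgeR adjusted p = 0.00081). The duct transcription factor Sox9 did not pass, at 14.9, 13.3 and 17.9 against 7.77, 17.7 and 5.92 (log2 fold change 0.56, edgeR adjusted p = 0.32). For Sox9 the log2 fold change was 1.16 without hepatocyte replicate 2 (adjusted p = 0.0087). In MM HepOrgs of 2 weeks, to which no cholangiocytes were added, Krt19 stood at 6.19 ± 8.41 CPM and Spp1 at 10480.0 ± 2016 CPM (SD, n = 3, scaled over 27 libraries), beside 49.1 ± 14.2 and 8481 ± 1926 CPM in the assembloids on the same scale. The part of added cholangiocytes in the difference from hepatocytes was not tested.

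Most portal fibroblast genes that could be tested were also higher. Of 21 genes, 14 had enough counts, 9 of these were higher and none was lower (median 2.86), and the summed level of the list was 326.7 to 449.9 CPM against 38.7 to 136.3 CPM. Mgp, which encodes a matrix protein that blocks calcification, was at 15.5, 13.5 and 32.3 in the assembloids and 0, 0.574 and 0 in the hepatocytes (log2 fold change 6.98, SE 1.21, edgeR adjusted p = 0.0054). For Mgp the log2 fold change was 6.30 without hepatocyte replicate 1 and 6.30 without hepatocyte replicate 3. Without hepatocyte replicate 2 the hepatocytes had no Mgp count left, so the fitted value of 13.04 is not a measured size. Msln, the surface protein mesothelin, was at 42.3, 25.7 and 14.7 against 0, 1.66 and 0.193 (log2 fold change 5.62, edgeR adjusted p = 0.012). For Msln the log2 fold change was 4.97 without hepatocyte replicate 1 and 8.20 without hepatocyte replicate 2. Cdh11, a cadherin of mesenchyme, was at 1.49, 0.677 and 5.798 against 0.126, 0.0676 and 0.0722 (log2 fold change 4.83, edgeR adjusted p = 0.0093). For Cdh11 the log2 fold change was 3.54 without assembloid replicate 3. In these 3 genes every assembloid library lay above every hepatocyte library. Pdgfra, whose promoter drives GFP in the mesenchymal line generally used, did not pass (1.504, 1.16 and 3.402 against 0.505, 2.297 and 1.397, log2 fold change 0.53, edgeR adjusted p = 0.56) and its groups overlapped. Ly6a, the gene of the sort marker SCA1, was at 20.5, 21.7 and 15.1 against 1.75, 7.904 and 6.21 (log2 fold change 1.86, edgeR adjusted p = 0.028), and leaving out a library ended this call 4 times. For Ly6a the log2 fold change was 1.81 without assembloid replicate 1 (adjusted p = 0.078), 1.76 without assembloid replicate 2 (adjusted p = 0.082), 2.00 without assembloid replicate 3 (adjusted p = 0.051) and 1.96 without hepatocyte replicate 3 (adjusted p = 0.073). Without hepatocyte replicate 1, 3 genes of the list passed as lower.

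Of 19 tested collagen genes of several classes 11 were higher and 2 lower, with a median of 2.36, while the summed level of the list was 205.3 to 300.1 CPM against 121.5 to 194.4 CPM. Col1a1, a chain of type I collagen (ENSMUSG00000001506, GRCm39 chr11:94827050-94843868), was at 40.03, 54.2 and 53.9 in the assembloids and 0.0211, 2.702 and 0.241 in the hepatocytes (log2 fold change 5.75, SE 1.19, edgeR adjusted p = 0.010). For Col1a1 the log2 fold change was 5.13 without hepatocyte replicate 1 and 8.59 without hepatocyte replicate 2. Its partner Col1a2 was at 21.5, 31.7 and 29.97 against 0.379, 3.41 and 1.66 (log2 fold change 3.96, edgeR adjusted p = 0.0057). For Col1a2 the log2 fold change was 4.77 without hepatocyte replicate 2. Col5a2, which sets the width of collagen fibrils, was at 7.05, 7.34 and 9.200 against 0.0421, 0.9796 and 0.458 (log2 fold change 4.04, edgeR adjusted p = 0.011). For Col5a2 the log2 fold change was 4.99 without hepatocyte replicate 2. Col14a1, a fibril-associated collagen, was at 0.0451, 0.0991 and 0.839 against 3.26, 15.7 and 12.3 (log2 fold change −5.08, edgeR adjusted p = 0.014). For Col14a1 the log2 fold change was −4.62 without assembloid replicate 2 (adjusted p = 0.052) and −7.14 without assembloid replicate 3. Col18a1, which encodes the endostatin precursor, was at 16.6, 31.5 and 36.4 against 150.2, 103 and 72.1 (log2 fold change −1.94, edgeR adjusted p = 0.0079). The count of higher collagen genes was 7 without assembloid replicate 2 or hepatocyte replicate 3. The highest fold of the list was that of Col8a1, a short-chain collagen, at 3.85, 4.99 and 5.13 against 0, 0.0338 and 0.0963 (log2 fold change 6.69, edgeR adjusted p = 0.0013). For Col8a1 the log2 fold change was 6.02 without hepatocyte replicate 1 and 8.16 without hepatocyte replicate 3. Its promoter is shown because it had the highest fold of its list, and that of Col1a1, the next, was not used here. It is the 250 bases before the start in RefSeq on GRCm38.p6, chr16:57754738-57754987 on the minus strand, and capitals mark GGGCGG, the core of an Sp1 box, on the other strand.
Col8a1: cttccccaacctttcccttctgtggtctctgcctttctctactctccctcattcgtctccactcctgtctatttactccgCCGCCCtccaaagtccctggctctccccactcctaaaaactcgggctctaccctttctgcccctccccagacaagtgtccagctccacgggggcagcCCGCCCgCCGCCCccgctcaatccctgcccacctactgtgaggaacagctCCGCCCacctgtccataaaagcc
The box occurred 4 times, starting 170, 73, 66 and 23 bases before the start, and 32.7% of 32851 promoters of the same length hold it on either strand.

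Of 13 tested genes for matrix proteases and their inhibitors, 10 were higher and 2 lower (median 2.43). Mmp3, or stromelysin 1, was at 9.76, 29.4 and 17.8 in the assembloids and had no count in the hepatocytes, which is at least 241-fold higher at the floor of 3 counts per library (edgeR adjusted p = 0.0013). Plat, the tissue plasminogen activator, was at 73.6, 104 and 12.4 against 0.0421, 0.203 and 0.1204 (log2 fold change 9.11, SE 1.06, edgeR adjusted p = 0.0013). Mmp19 was at 7.91, 6.68 and 8.58 against 17.5, 24.4 and 17.5 (log2 fold change −1.36, edgeR adjusted p = 0.0030). Adamts5, which cuts proteoglycans, was at 0.346, 0.777 and 0.527 against 2.29, 0.811 and 4.72 (log2 fold change −2.25, edgeR adjusted p = 0.042). For Adamts5 the log2 fold change was −1.99 without assembloid replicate 1 (adjusted p = 0.13), −2.58 without assembloid replicate 2 (adjusted p = 0.079), −2.22 without assembloid replicate 3 (adjusted p = 0.11), −2.34 without hepatocyte replicate 1 (adjusted p = 0.066) and −1.53 without hepatocyte replicate 3 (adjusted p = 0.14). The inhibitor gene Timp1 is listed at 0 in all 6 libraries, as 17 genes of the 44 lists are. The reason was not tested, and this 0 is not read as a lack of expression. Of 16 tested chemokine and cytokine genes, 8 were higher and 2 lower (median 2.71). Cxcl14 was at 29.01, 30.5 and 64.3 against 0.147, 0.9796 and 0.891 (log2 fold change 5.98, edgeR adjusted p = 0.0013). Ccl20, the ligand of CCR6, was at 2.84, 3.47 and 1.41 against no count, at least 32.6-fold higher (edgeR adjusted p = 0.0026). Lif, a cytokine of the IL-6 family, had 4.47, 5.47 and 1.92 in the assembloids and no count in the hepatocytes, at least 50.1-fold higher (edgeR adjusted p = 0.0024). Cxcl12, the ligand of CXCR4, was lower, at 30.1, 44.6 and 47.2 against 463, 229 and 315 (log2 fold change −3.05, edgeR adjusted p = 0.00090).

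Genes of endothelial, Kupffer and other immune cells, none of which were added to the assembloids, were far lower there. Of 14 tested endothelial genes 13 were lower, and of 16 tested immune genes 15 were lower, with none higher in either list. The medians were −6.91 and −11.03. They were −5.90 and −7.45 with genes at no more than 3 counts in every library of 1 group set to their bound. The summed level of the 20 immune genes was 5.81 to 6.76 CPM in the assembloids and 72.4 to 739.5 CPM in the hepatocytes, and that of the 14 endothelial genes 9.88 to 14.3 and 76.9 to 329.5 CPM. Clec4f, a lectin found on Kupffer cells (ENSMUSG00000014542, GRCm39 chr6:83621524-83633169), had no count in the assembloids and 14.7, 101 and 59.4 in the hepatocytes, at least 1051-fold lower (edgeR adjusted p = 0.0031). Clec4g, a lectin of sinusoidal endothelium, had no count against 10.9, 52.3 and 50.1, at least 679.7-fold lower (edgeR adjusted p = 0.0025). Among the defining markers, Cd5l, Vsig4, Timd4, Marco and the C1q genes also had no count in any assembloid library. Hepatocyte replicate 2 was the highest library for Clec4f and Clec4g, and replicate 1 the lowest. Kdr, the receptor of the growth factor VEGF, was at 0.01504, 0 and 0 against 8.06, 36.5 and 28.4, which is 1, 0 and 0 counts in the assembloids (edgeR adjusted p = 0.00049). Haemoglobin genes summed to 0.484 to 52.9 CPM in the hepatocytes and to at most 0.0165 CPM in the assembloids. The part of these cells in other differences from hepatocytes was not tested.

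Hepatic stellate cell genes were lower in 8 of 12 tested cases and higher in none (median −3.60). Colec11, a collectin, was at 0.0602, 0.165 and 0 against 5.68, 14.3 and 16.9 (log2 fold change −7.21, edgeR adjusted p = 0.0014). For Colec11 the log2 fold change was −8.32 without assembloid replicate 2. Lrat, which esterifies retinol for storage, was at 0.0902, 0.0165 and 0.0479 against 1.66, 14.7 and 4.79 (log2 fold change −6.99, edgeR adjusted p = 0.0035). For Lrat the log2 fold change was −7.74 without assembloid replicate 1 and −5.88 without hepatocyte replicate 2. The groups overlapped for Des and Hand2. Without assembloid replicate 1 or 2, 5 genes of the list passed. Only 3 of its genes reached the filter on TPM, and 1 of those passed. Contractile genes were split, with 6 of 15 higher and 1 lower, and 3 higher without assembloid replicate 3 or hepatocyte replicate 3. Acta2, the smooth muscle actin of myofibroblasts, was at 2.32, 0.744 and 0.815 against 0, 0.236 and 0.1204 (log2 fold change 3.51, SE 1.08, edgeR adjusted p = 0.041). For Acta2 the log2 fold change was 2.76 without assembloid replicate 1 (adjusted p = 0.15), 3.78 without assembloid replicate 2 (adjusted p = 0.075), 3.75 without assembloid replicate 3 (adjusted p = 0.068), 2.87 without hepatocyte replicate 1, 4.42 without hepatocyte replicate 2 and 3.52 without hepatocyte replicate 3 (adjusted p = 0.12).

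**Figure D3:**
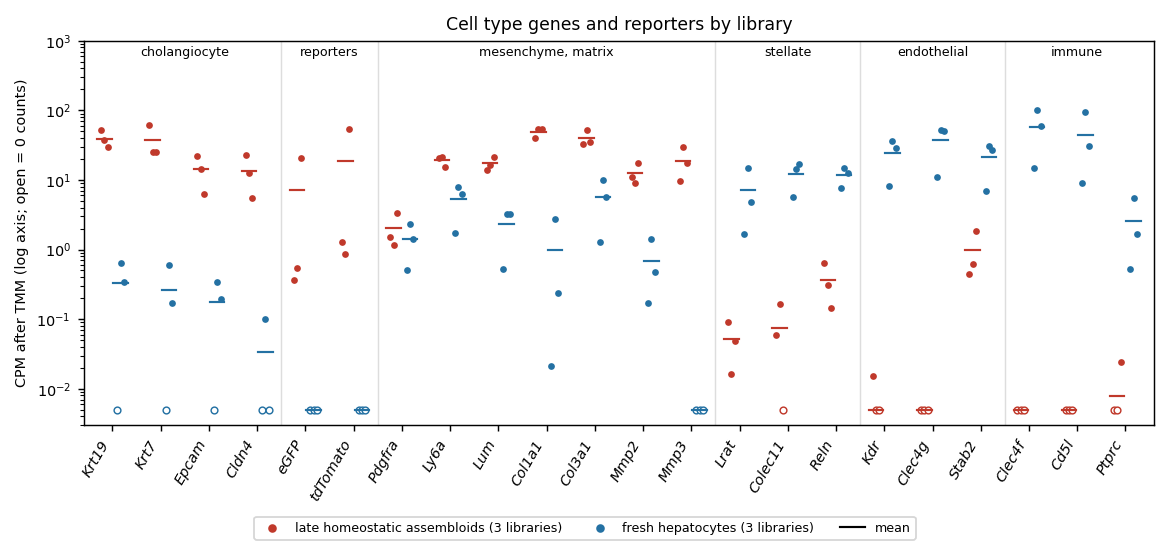
Each point is the CPM of 1 library on a log axis, with red for the 3 late homeostatic assembloid libraries, blue for the 3 fresh hepatocyte libraries, open points at the foot of the plot for 0 counts and bars for means. Duct, matrix and reporter genes stand higher in red, Pdgfra overlaps, and stellate, endothelial and immune genes stand higher in blue, with Clec4f at 0 in every assembloid library.

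Plasma proteins did not move together. Of 25 tested carrier and lipoprotein genes, 13 were lower, 4 higher and 8 did not pass (median −0.89), and the whole list summed to 149800.0 to 185400.0 CPM in the assembloids and 186200.0 to 208400.0 CPM in the hepatocytes. Alb, which encodes albumin (ENSMUSG00000029368, GRCm39 chr5:90608647-90624696), was at 6893, 7669.8 and 5293 in the assembloids and 26932, 32581 and 13418 in the hepatocytes, 3.67-fold lower (log2 fold change −1.88, SE 0.38, edgeR adjusted p = 0.0092). Hepatocyte replicate 3 was the lowest of its group for Alb, and every assembloid library lay below it. Apoa2, a main protein of high-density lipoprotein, was at 3557, 2962 and 3686 against 14835, 9429.8 and 14435 (log2 fold change −1.92, edgeR adjusted p = 0.0022). Apoa5, which regulates triglyceride lipolysis, was at 356, 358 and 631 against 4278, 1461 and 3401 (log2 fold change −2.76, edgeR adjusted p = 0.0046). Rbp4, the carrier of retinol, was at 2038, 2053 and 1142 against 6360.1, 6964 and 6542 (log2 fold change −1.92, edgeR adjusted p = 0.0028). Hpx, the haem carrier haemopexin (ENSMUSG00000030895, GRCm39 chr7:105240817-105249344), went the other way, at 23183, 27201 and 32556 against 4492, 7328 and 4139.7, 5.197-fold higher (log2 fold change 2.38, SE 0.32, edgeR adjusted p = 0.0021). A fit that takes 1 spread from 15 or 27 libraries ended the calls of both Alb and Hpx, and leaving the 1-week library out of the 27 restored them. Leaving it out of the 15 did not restore Hpx, since that fit over 14 libraries passed no gene of this list as higher. Apoa4, an apolipoprotein of triglyceride-rich particles, was at 2367, 3576 and 1398 against 471, 572 and 554 (log2 fold change 2.20, edgeR adjusted p = 0.0040). Transferrin (Trf), at 53785, 49342 and 68993 against 47782, 42286 and 46824, did not pass (log2 fold change 0.33, edgeR adjusted p = 0.36). Without hepatocyte replicate 3, 2 genes of this list were higher, and 7 with library totals alone.

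Complement and coagulation genes leaned lower by count, with 19 of 34 tested genes lower, 3 higher and a median of −0.99. The summed level of the list overlapped, at 58150 to 78120 CPM in the assembloids and 57160 to 63100 CPM in the hepatocytes. Membrane attack genes were among the lowest. C8b was at 19.1, 15.2 and 22.7 in the assembloids and 614, 754 and 888 in the hepatocytes (log2 fold change −5.31, SE 0.25, edgeR adjusted p = 0.00012). C8a was at 199.8, 222 and 201 against 1613, 1296 and 1261 (log2 fold change −2.74, edgeR adjusted p = 0.00021). Among clotting factors, F11 was at 4.56, 5.77 and 3.91 against 118, 108.6 and 176 (log2 fold change −4.82, edgeR adjusted p = 0.00016). F13b, the carrier subunit of factor XIII, was at 60.7, 66.9 and 65.6 against 382, 243 and 348 (log2 fold change −2.33, edgeR adjusted p = 0.00048). Cpb2, which slows the breakdown of fibrin, was higher, at 2078, 1732 and 3037 against 442, 586 and 478 (log2 fold change 2.19, edgeR adjusted p = 0.0014). The number of higher genes was 6 with library totals alone, 5 with DESeq2 or upper quartile scaling and 7 on log2(TPM + 1).

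Acute phase genes, which the liver raises in inflammation, were higher in 11 of 16 tested cases, with 1 lower and a median of 2.23. Lcn2, an iron-chelating lipocalin (ENSMUSG00000026822, GRCm39 chr2:32274645-32278264), was at 2798, 4338 and 2432 in the assembloids and 3.85, 18.1 and 3.01 in the hepatocytes (log2 fold change 8.59, SE 0.94, edgeR adjusted p = 0.0011). For Lcn2 the log2 fold change was 9.85 without hepatocyte replicate 2. Haptoglobin (Hp) was at 25671, 28037 and 34900.0 against 4019.6, 5054 and 2561 (log2 fold change 2.93, edgeR adjusted p = 0.0012). Orm2, an acid glycoprotein, was at 2279, 2676 and 4216 against 7.599, 100.0 and 4.21 (log2 fold change 6.36, edgeR adjusted p = 0.012). For Orm2 the log2 fold change was 9.01 without hepatocyte replicate 2. In all 3 genes the lowest assembloid library lay above the highest hepatocyte library. Saa1, an amyloid protein, was at 2804, 3457 and 8832 against 107, 702 and 97.6 (log2 fold change 4.06, edgeR adjusted p = 0.017). For Saa1 the log2 fold change was 3.37 without assembloid replicate 3 and 5.61 without hepatocyte replicate 2, and since Saa1 and Saa2 are nearly identical their reads may be split between them. Hamp, which encodes hepcidin, was the lower gene, at 12.3, 4.56 and 38.7 against 1196, 148 and 849 (log2 fold change −5.31, edgeR adjusted p = 0.010). For Hamp the log2 fold change was −6.45 without assembloid replicate 3.

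Hepatocyte transcription factors were lower in 11 of 20 tested cases and higher in none (median −0.92). Hnf4a, the regulator of the hepatocyte programme (ENSMUSG00000017950, GRCm39 chr2:163348728-163414830), was at 135, 149 and 157 in the assembloids and 305, 265 and 205 in the hepatocytes (log2 fold change −0.81, SE 0.18, edgeR adjusted p = 0.013). For Hnf4a the log2 fold change was −0.75 without assembloid replicate 1 (adjusted p = 0.058). Cebpa was at 28.02, 25.6 and 33.4 against 169, 125 and 146 (log2 fold change −2.34, edgeR adjusted p = 0.00032). The nuclear receptor Nr1i3, which senses foreign compounds, was at 6.48, 3.16 and 3.26 against 61.1, 17.6 and 34.2 (log2 fold change −3.13, edgeR adjusted p = 0.0049). Nr0b2, which represses bile acid synthesis, was at 7.37, 9.996 and 11.2 against 74.5, 125 and 72.7 (log2 fold change −3.25, edgeR adjusted p = 0.00052). On log2(TPM + 1), 7 of the 20 passed as lower, Hnf4a not among them.

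All 8 urea cycle genes were lower, with a median of −2.49, and their summed level was 724.6 to 791.9 CPM against 9146 to 13520.0 CPM. Cps1, which feeds ammonia into the cycle (ENSMUSG00000025991, GRCm39 chr1:67161988-67270418), was at 4.14, 13.5 and 2.06 in the assembloids and 3331, 4138 and 3006 in the hepatocytes (log2 fold change −9.05, SE 0.88, edgeR adjusted p = 0.00070). For Cps1 the log2 fold change was −10.13 without assembloid replicate 2. Otc, the next enzyme, was at 1.79, 1.45 and 1.25 against 547, 709 and 507 (log2 fold change −8.61, SE 0.28, edgeR adjusted p = 5.1e-05). Ass1 was at 169, 205 and 84.98 against 3407, 5279.6 and 2837 (log2 fold change −4.65, edgeR adjusted p = 0.00065). Arg1, which releases urea, was at 336, 262 and 342 against 2238, 2015 and 1636, 6.26-fold lower (log2 fold change −2.65, edgeR adjusted p = 0.00037). No library of either group came near the other for Cps1 and Otc, while Arg1 kept a level above 200 CPM in every assembloid library. Of 21 tested genes of amino acid breakdown 20 were lower and none higher. Sds, or serine dehydratase, was at 0.406, 0.413 and 0.0958 against 372, 279 and 267 (log2 fold change −9.90, SE 0.53, edgeR adjusted p = 0.00014). Hal, which degrades histidine, was at 1.29, 0.777 and 0.623 against 323, 563 and 295 (log2 fold change −8.76, edgeR adjusted p = 0.00015). Agxt, which removes glyoxylate, was at 2.57, 3.47 and 0.431 against 497, 562 and 636 (log2 fold change −8.02, edgeR adjusted p = 0.00074). Gnmt, which uses up S-adenosylmethionine, was at 32.6, 18.6 and 29.04 against 2319, 3561 and 2838 (log2 fold change −6.76, edgeR adjusted p = 0.00014). Mat1a, which makes S-adenosylmethionine, was the exception, at 1515, 1549 and 1567 against 3174, 2473 and 1672 (log2 fold change −0.66, edgeR adjusted p = 0.081),. For Mat1a the log2 fold change was −0.90 without hepatocyte replicate 3 (adjusted p = 0.029).

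Glucose metabolism was uneven. Pck1, the first enzyme of gluconeogenesis (ENSMUSG00000027513, GRCm39 chr2:172994744-173001066), was at 1.83, 7.47 and 1.99 in the assembloids and 2826, 1972 and 1289.5 in the hepatocytes (log2 fold change −9.07, SE 0.83, edgeR adjusted p = 0.00057). For Pck1 the log2 fold change was −10.05 without assembloid replicate 2. Fbp1, a later enzyme of the same route, was at 915, 1056 and 1616 against 1704, 1579.7 and 1341 and did not pass (log2 fold change −0.37, edgeR adjusted p = 0.29), with overlapping groups. In all, 6 of 16 tested genes of liver glucose metabolism were lower, 1 higher and 9 not past the threshold. The share that passed was near the 37.2% of all genes tested. With library totals alone 5 were lower and 3 higher. The summed level of the list was higher, at 16650 to 35950 CPM in the assembloids against 10060 to 15120 CPM in the hepatocytes. Slc2a2, the main glucose transporter of hepatocytes, was at 180.3, 187 and 236 against 602, 396 and 455 (log2 fold change −1.27, edgeR adjusted p = 0.0046). Pkm, the pyruvate kinase of most tissues other than liver, was higher, at 213, 169.9 and 204 against 2.44, 10.9 and 7.46 (log2 fold change 4.83, SE 0.55, edgeR adjusted p = 0.0012). Pfkp, a phosphofructokinase, was at 97.2, 103 and 118 against 0.442, 2.702 and 1.25 (log2 fold change 6.21, edgeR adjusted p = 0.00080). For Pfkp the log2 fold change was 6.97 without hepatocyte replicate 2. General glycolysis genes had 4 of 13 higher and none lower, beside 18.5% higher and 18.7% lower of all genes tested. The count of higher glycolysis genes was 2 without assembloid replicate 1 or 2 or hepatocyte replicate 3, and 7 without hepatocyte replicate 2.

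Of the 13 genes that the mitochondrial genome encodes, 12 were lower (median −1.30), and their summed level was 19180.0 to 20610.0 CPM against 45940.0 to 57850.0 CPM. mt-Co1, a core subunit of cytochrome oxidase, was at 4236, 5223 and 4218 in the assembloids and 11747, 13020.0 and 12203 in the hepatocytes (log2 fold change −1.43, edgeR adjusted p = 0.0027). The cytochrome b gene mt-Cytb was at 3790.4, 3646 and 3093 against 10822, 12630.0 and 11930.0 (log2 fold change −1.75, edgeR adjusted p = 0.0013). Reads of these genes can be shared with copies in the nuclear genome. Respiratory chain genes of the nucleus were lower in 13 of 21 tested cases with a median of −0.61, in 8 with library totals alone, and on log2(TPM + 1) 8 were lower and 2 higher. Sdha, a subunit of succinate dehydrogenase, was at 281, 269.8 and 260.3 against 757, 761 and 644 (log2 fold change −1.42, edgeR adjusted p = 0.00082). Uqcrc1, a subunit of complex III, was at 333, 305 and 313 against 671, 762 and 676 (log2 fold change −1.15, edgeR adjusted p = 0.0015).

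Bile acid synthesis was lower in 10 of 12 tested genes and higher in none (median −2.42). Cyp7b1, which starts the acidic route, was at 15.6, 12.01 and 18.3 in the assembloids and 633, 464 and 1359.6 in the hepatocytes (log2 fold change −5.74, SE 0.49, edgeR adjusted p = 0.00048). Cyp7a1, the rate-limiting enzyme of the classic route (ENSMUSG00000028240, GRCm39 chr4:6265612-6275633), was at 5.098, 1.603 and 1.34 against 99.3, 22.2 and 235 (log2 fold change −5.46, SE 1.01, edgeR adjusted p = 0.0070). For Cyp7a1 the log2 fold change was −6.33 without assembloid replicate 1 and −4.51 without hepatocyte replicate 3. Akr1d1, which reduces the sterol ring, was at 7.35, 5.47 and 9.34 against 92.1, 209 and 99.5 (log2 fold change −4.18, edgeR adjusted p = 0.00071). Akr1c6, a ketosteroid reductase, was at 86.2, 3.67 and 25.1 against 1533, 1323 and 1906 (log2 fold change −5.37, edgeR adjusted p = 0.0096). For Akr1c6 the log2 fold change was −6.79 without assembloid replicate 1. Of 19 tested transporter genes, 13 were lower and 1 higher (median −2.60). Slc10a1, the sodium-dependent importer of bile acids, was at 92.9, 81.99 and 196 against 696, 803 and 747 (log2 fold change −2.60, edgeR adjusted p = 0.0024). Slco1a1, an importer of organic anions, was at 2.71, 0.777 and 1.01 against 1272, 367 and 1355 (log2 fold change −9.37, edgeR adjusted p = 0.00060). For Slco1a1 the log2 fold change was −10.13 without assembloid replicate 1. Slc22a7, another anion importer, was at 2.99, 6.16 and 2.56 against 300.3, 200.3 and 469 (log2 fold change −6.37, edgeR adjusted p = 0.00043). Abcb11, the bile salt export pump of the canaliculus (ENSMUSG00000027048, GRCm39 chr2:69068544-69173315), was at 53.5, 47.04 and 69.6 against 260.4, 599 and 285, 6.73-fold lower (log2 fold change −2.75, SE 0.37, edgeR adjusted p = 0.0022). Abcb4, which encodes the phospholipid exporter MDR2, did not pass, at 225, 207 and 177 against 232, 185 and 101 (log2 fold change 0.23, edgeR adjusted p = 0.57), and hepatocyte replicate 3, labelled MDR2-het, was the lowest of all 6 libraries. Abcc2, the canalicular exporter of conjugates, was at 199, 132 and 135 against 321, 304 and 259 (log2 fold change −0.92, edgeR adjusted p = 0.013). For Abcc2 the log2 fold change was −0.81 without assembloid replicate 2 (adjusted p = 0.054). Abcc3, an exporter on the blood side, was at 313, 272 and 274 against 261, 161 and 86.9 (log2 fold change 0.75, edgeR adjusted p = 0.15). For Abcc3 the log2 fold change was 1.21 without hepatocyte replicate 1 (adjusted p = 0.022). Abcc4, another exporter to blood, was the higher gene, at 31.3, 27.7 and 13.03 against 0.358, 3.18 and 0.698 (log2 fold change 4.14, edgeR adjusted p = 0.0090). For Abcc4 the log2 fold change was 5.51 without hepatocyte replicate 2.

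Cytochrome P450 genes of families 1 to 4 were lower in 18 of 26 tested cases and higher in 1 (median −2.64). Cyp2e1, which oxidises ethanol (ENSMUSG00000025479, GRCm39 chr7:140343652-140355167), was at 12239, 6991 and 11523 in the hepatocytes and at 27.7, 1.14 and 2.97 in the assembloids (log2 fold change −9.91, SE 1.51, edgeR adjusted p = 0.0035). Assembloid replicate 1 was the highest of its group, and the log2 fold change was −12.29 without assembloid replicate 1. Cyp2f2, a periportal P450, was at 23.2, 15.7 and 11.02 against 3160.0, 3715 and 2990.3 (log2 fold change −7.62, edgeR adjusted p = 0.00014). Cyp3a11, the main drug-oxidising enzyme of its family, was at 964, 411 and 458 against 1802, 4518 and 1527 (log2 fold change −2.10, edgeR adjusted p = 0.021). For Cyp3a11 the log2 fold change was −1.87 without assembloid replicate 2 (adjusted p = 0.077), −1.93 without assembloid replicate 3 (adjusted p = 0.072) and −1.45 without hepatocyte replicate 2. Cyp1a1, which the aryl hydrocarbon receptor induces, was the higher gene, at 123, 50.97 and 52.6 against 1.92, 1.18 and 1.69 (log2 fold change 5.55, SE 0.46, edgeR adjusted p = 0.00043). The lowest fold of the list was that of Cyp2c54, at 0.511, 0.0661 and 0 against 363, 465 and 318 (log2 fold change −10.81, edgeR adjusted p = 0.00069). For Cyp2c54 the log2 fold change was −13.19 without assembloid replicate 1, and reads of the Cyp2c family may be split between its members. The promoter of Cyp2e1, the next lowest, is shown as the 250 bases before the start in RefSeq on GRCm38.p6, chr7:140763569-140763818 on the plus strand, with TATAAA and the other-strand form of CCAAT in capitals.
Cyp2e1: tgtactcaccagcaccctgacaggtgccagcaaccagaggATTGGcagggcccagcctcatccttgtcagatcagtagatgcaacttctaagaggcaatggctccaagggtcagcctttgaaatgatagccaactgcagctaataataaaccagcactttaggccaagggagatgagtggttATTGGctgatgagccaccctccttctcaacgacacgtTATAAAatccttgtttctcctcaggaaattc
TATAAA lay 31 to 26 bases before the start and CCAAT 210 to 206 and 68 to 64 bases before it. On either strand 12.4% of the 32851 promoters hold TATAAA and 33.8% hold CCAAT, and none of the HNF motifs searched (GTTAAT, 6.43% of promoters, and CAAAGTCCA, 0.384%) was found in the Cyp2e1 or Col8a1 window.

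Conjugation enzymes, which make P450 products soluble, were lower in 15 of 23 tested genes and higher in 1 (median −1.30). The summed level of the list overlapped, at 7751 to 14560 CPM in the assembloids and 11620 to 16840 CPM in the hepatocytes. Ugt2a3, a glucuronosyltransferase, was at 0.993, 0.8096 and 0.527 in the assembloids and 277, 223 and 216 in the hepatocytes (log2 fold change −8.24, SE 0.31, edgeR adjusted p = 0.00010). Ugt3a1 was at 2.05, 0.777 and 1.797 against 119.7, 65.5 and 129 (log2 fold change −6.09, edgeR adjusted p = 0.00038). The sulphotransferase Sult1d1 was at 14.5, 16.8 and 5.39 against 58.6, 168 and 55.7 (log2 fold change −2.94, edgeR adjusted p = 0.0098). For Sult1d1 the log2 fold change was −2.23 without hepatocyte replicate 2. Gstm3, a glutathione transferase, was higher, at 2465, 429.6 and 719.9 against 88.7, 151 and 157 (log2 fold change 3.19, edgeR adjusted p = 0.012). For Gstm3 the log2 fold change was 2.12 without assembloid replicate 1.

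**Figure D4:**
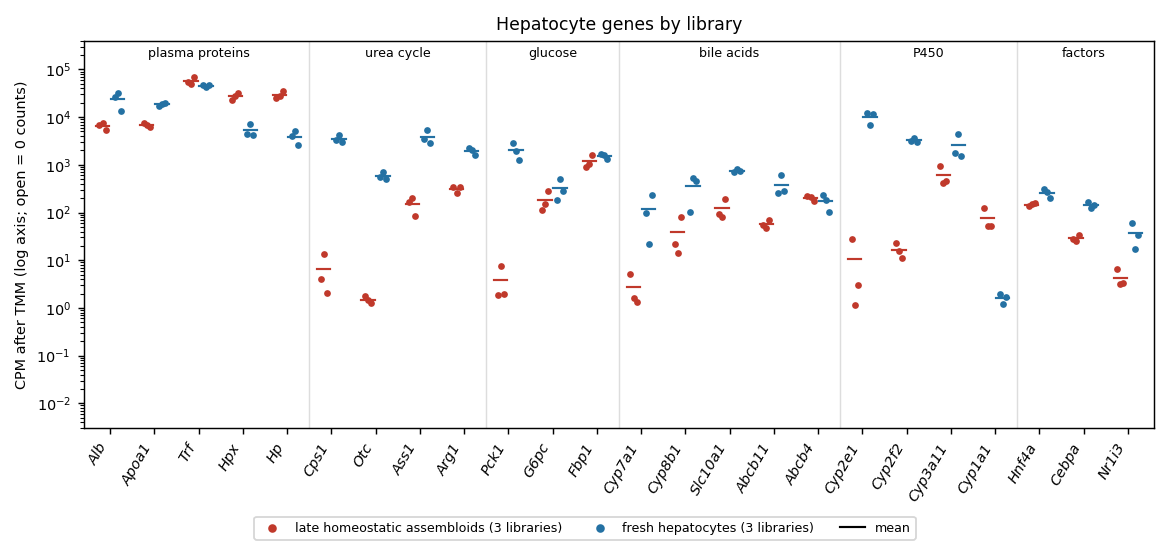
Each point is the CPM of 1 library on a log axis, with red for the 3 late homeostatic assembloid libraries, blue for the 3 fresh hepatocyte libraries and bars for means. Alb, all 4 urea cycle genes shown, Pck1 and Cyp2e1 stand lower in red without overlap, Hpx, Hp and Cyp1a1 stand higher, and Fbp1 and Abcb4 overlap.

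Fatty acid oxidation and ketogenesis genes were lower in 11 of 20 tested cases and higher in none (median −0.74), and in 7 without assembloid replicate 1 or 2 or with library totals alone. Fabp1, the fatty acid carrier of liver, was at 1856, 1206 and 1892 in the assembloids and 8594, 3915 and 7773 in the hepatocytes (log2 fold change −2.03, edgeR adjusted p = 0.0058). Bdh1, which makes hydroxybutyrate, was at 56.3, 50.3 and 47.1 against 329, 119.5 and 249 (log2 fold change −2.18, edgeR adjusted p = 0.0045). Acaa2, a thiolase, was at 530.3, 478 and 535 against 2295, 1653 and 1976 (log2 fold change −1.94, edgeR adjusted p = 0.00067). Cholesterol and fatty acid synthesis had 5 of 22 tested genes higher and 3 lower, a share near the 37.2% of all genes tested. Insig1, which holds back sterol synthesis, was at 133, 109.8 and 149.7 against 411, 342 and 496 (log2 fold change −1.67, edgeR adjusted p = 0.0014). Srebf1, a factor of lipid synthesis, was at 75.7, 96.6 and 107 against 301, 338 and 157 (log2 fold change −1.51, edgeR adjusted p = 0.0095). Me1, the malic enzyme, was higher, at 231, 185 and 463 against 117, 51.3 and 76.8 (log2 fold change 1.84, edgeR adjusted p = 0.017). For Me1 the log2 fold change was 1.77 without hepatocyte replicate 3 (adjusted p = 0.062). Scd1, which desaturates fatty acids, was at 18339, 14440.0 and 26468 against 4578, 9190.0 and 4144 (log2 fold change 1.73, edgeR adjusted p = 0.016). For Scd1 the log2 fold change was 1.57 without hepatocyte replicate 1 (adjusted p = 0.050) and 1.49 without hepatocyte replicate 3 (adjusted p = 0.065). The count of higher genes went from 0 without hepatocyte replicate 3 to 8 without hepatocyte replicate 2, with 2 or 3 without assembloid replicate 2 or 3 or hepatocyte replicate 1, and was 10 on log2(TPM + 1).

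Most tested genes of both lobule zones were lower. Of 18 tested periportal genes 12 were lower and 3 higher (median −4.24), and of 18 tested pericentral genes 12 were lower and 1 higher (median −3.25). The summed level of the periportal list overlapped, at 17740 to 34430 CPM in the assembloids and 21450 to 30250 CPM in the hepatocytes. That of the pericentral list was 653 to 1212 CPM against 11450 to 16310 CPM. No pericentral gene was higher without assembloid replicate 1 or 3 or hepatocyte replicate 3. The 4 lowest periportal genes were Sds, Pck1, Cps1 and Hal, given above. Hsd17b13, a lipid droplet enzyme, was higher, at 679, 884 and 603 in the assembloids and 190.2, 354 and 85.1 in the hepatocytes (log2 fold change 1.78, edgeR adjusted p = 0.028). For Hsd17b13 the log2 fold change was 1.83 without assembloid replicate 1 (adjusted p = 0.068), 1.62 without assembloid replicate 2 (adjusted p = 0.084), 1.90 without assembloid replicate 3 (adjusted p = 0.053), 1.72 without hepatocyte replicate 1 (adjusted p = 0.071) and 2.38 without hepatocyte replicate 2. Gls2, the liver glutaminase, was at 1.49, 1.404 and 1.32 against 100.4, 229 and 75.4 (log2 fold change −6.58, edgeR adjusted p = 0.00035). For Gls2 the log2 fold change was −5.97 without hepatocyte replicate 2. Among pericentral genes, Lgr5, a receptor of R-spondins, was at 0.421, 0.0826 and 0.0479 against 3.600, 12.3 and 8.62 (log2 fold change −5.38, edgeR adjusted p = 0.0044). For Lgr5 the log2 fold change was −6.86 without assembloid replicate 1. Notum, a Wnt deacylase and Wnt target, was at 2.42, 1.19 and 2.85 against 33.98, 38.7 and 50.2 (log2 fold change −4.25, edgeR adjusted p = 0.00048). Glul, the glutamine synthetase of the cells next to the central vein, was at 126, 92.5 and 186 against 73.1, 177 and 113, overlapped and did not pass (log2 fold change 0.16, edgeR adjusted p = 0.77). Axin2, a general Wnt target, was low in every library, at 0.541, 0.03305 and 0.1198 against 0.295, 0.405 and 0.698 (log2 fold change −0.98, edgeR adjusted p = 0.45). Without assembloid replicate 1 its log2 fold change was −2.62, still not past the threshold. Of 11 tested Wnt targets 6 were lower and none higher, and 3 were lower without assembloid replicate 1 or 2 or hepatocyte replicate 3. Nkd1, a Wnt antagonist, was at 0.286, 0.248 and 0 against 0.842, 2.601 and 1.902 (log2 fold change −3.25, edgeR adjusted p = 0.042). For Nkd1 the log2 fold change was −3.73 without assembloid replicate 1 (adjusted p = 0.093), −3.52 without assembloid replicate 2 (adjusted p = 0.11), −2.89 without hepatocyte replicate 2 (adjusted p = 0.079) and −3.25 without hepatocyte replicate 3 (adjusted p = 0.10).

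The growth hormone axis, which sets male and female patterns in liver, was lower in 11 of 16 tested genes and higher in 1 (median −2.48), and on log2(TPM + 1) 3 were higher. Igf1, the hormone's best known target in liver, was at 14.4, 20.9 and 28.2 in the assembloids and 1224, 541 and 1108 in the hepatocytes (log2 fold change −5.50, SE 0.44, edgeR adjusted p = 0.00039). Elovl3, which extends fatty acids and is male-biased, was at 0.541, 0.545 and 1.92 against 222, 786 and 1394 (log2 fold change −9.67, edgeR adjusted p = 0.0010). For Elovl3 the log2 fold change was −10.52 without assembloid replicate 3 and −9.05 without hepatocyte replicate 3. Igfbp2, which binds insulin-like growth factors, was at 0.165, 0.644 and 0.264 against 834, 1276 and 756 (log2 fold change −11.36, edgeR adjusted p = 0.00016). For Igfbp2 the log2 fold change was −12.13 without assembloid replicate 2. Igfbp1 was higher, at 229.7, 373 and 183 against 53.95, 39.4 and 8.69 (log2 fold change 2.95, edgeR adjusted p = 0.013). All 4 Y-linked genes of the check had counts in all 6 libraries. Of 15 clock genes 7 were lower and 1 higher, but only 3, 1 and 3 were lower without assembloid replicates 1, 2 and 3, and on log2(TPM + 1) 2 were lower and 2 higher. Nr1d1, a repressor of the clock, was at 14.02, 9.798 and 8.72 against 112, 66.1 and 105 (log2 fold change −3.12, edgeR adjusted p = 0.00056). The hour of collection is not given in the labels.

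Genes of the list for p53 targets and senescence were higher in 11 of 17 tested cases and lower in 1 (median 1.57). Cdkn1a, the cell cycle inhibitor p21 (ENSMUSG00000023067, GRCm39 chr17:29309936-29319701), was at 178, 186 and 132 in the assembloids and 0.863, 3.95 and 3.97 in the hepatocytes (log2 fold change 5.83, SE 0.61, edgeR adjusted p = 0.00091). Mdm2, which degrades p53, was at 78.95, 78.1 and 74.1 against 24.4, 27.02 and 26.3 (log2 fold change 1.57, edgeR adjusted p = 0.00031). Phlda3, which restrains Akt, was at 108.9, 78.5 and 87.3 against 0.0632, 0.811 and 0.361 (log2 fold change 7.90, edgeR adjusted p = 0.00052). For Phlda3 the log2 fold change was 8.78 without hepatocyte replicate 2. Cdkn2b, or p15, a senescence gene of the list, was at 28.3, 33.2 and 8.43 against 0.484, 0.236 and 0.193 (log2 fold change 6.21, edgeR adjusted p = 0.0010). Eda2r, a death receptor, was at 11.8, 10.9 and 6.11 against 0.337, 0.101 and 0.265 (log2 fold change 5.29, edgeR adjusted p = 0.00063). In these 5 genes no assembloid library overlapped the hepatocytes, and the replicates of Mdm2 lay closest together. Sesn1 was the lower gene, at 7.805, 8.72 and 8.41 against 14.8, 15.03 and 14.7 (log2 fold change −0.84, edgeR adjusted p = 0.0050).

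NRF2 targets, which protect against oxidants, were higher in 9 of 14 tested cases and lower in none (median 1.46). Nqo1, a quinone reductase, was at 65.1, 38.9 and 53.5 in the assembloids and 3.14, 4.26 and 2.05 in the hepatocytes (log2 fold change 4.07, SE 0.33, edgeR adjusted p = 0.00042). Cbr3, a carbonyl reductase, was at 113, 41.9 and 87.5 against 0.0211, 0.101 and 0.289 (log2 fold change 9.19, edgeR adjusted p = 0.00042). For Cbr3 the log2 fold change was 8.59 without hepatocyte replicate 1 and 10.48 without hepatocyte replicate 3. Slc7a11, the cystine importer (ENSMUSG00000027737, GRCm39 chr3:49846975-50398070), was at 112, 60.3 and 46.2 against 0.0842, 0 and 0.0241 (log2 fold change 10.69, SE 0.68, edgeR adjusted p = 0.00021). For Slc7a11 the log2 fold change was 12.10 without hepatocyte replicate 1. The glutathione synthesis gene Gclc did not pass, at 132, 107 and 112 against 135, 70.8 and 78.5 (log2 fold change 0.30, edgeR adjusted p = 0.40). For Gclc the log2 fold change was 0.65 without hepatocyte replicate 1 (adjusted p = 0.026). ATF4 and unfolded protein response genes had 9 of 20 higher and 2 lower, and 15 of 19 higher on log2(TPM + 1). Psat1, of serine synthesis, was at 81.3, 89.8 and 90.8 against 1.41, 0.777 and 0.169 (log2 fold change 6.78, SE 0.65, edgeR adjusted p = 0.00068). For Psat1 the log2 fold change was 7.61 without hepatocyte replicate 1. Phgdh, the first enzyme of that route, was at 44.3, 48.6 and 53.3 against 2.02, 0.236 and 0.458 (log2 fold change 5.69, edgeR adjusted p = 0.0017). For Phgdh the log2 fold change was 7.07 without hepatocyte replicate 1. Nupr1, a stress-induced nuclear protein, was at 23.7, 23.03 and 25.9 against 0.337, 0.777 and 0.241 (log2 fold change 5.80, edgeR adjusted p = 0.00030). Herpud1, of protein quality control, was lower, at 245, 274 and 365 against 837, 499 and 427 (log2 fold change −0.995, edgeR adjusted p = 0.036). For Herpud1 the log2 fold change was −0.88 without assembloid replicate 1 (adjusted p = 0.12), −0.94 without assembloid replicate 2 (adjusted p = 0.11) and −0.65 without hepatocyte replicate 1 (adjusted p = 0.068). Shmt2, which splits serine, was at 168, 175 and 153 against 236, 336 and 262 (log2 fold change −0.75, edgeR adjusted p = 0.015). For Shmt2 the log2 fold change was −0.76 without assembloid replicate 1 (adjusted p = 0.054). Hspa5, the main chaperone of the endoplasmic reticulum, was at 1714, 2216 and 1946 against 967, 1583 and 1124 (log2 fold change 0.68, edgeR adjusted p = 0.059). For Hspa5 the log2 fold change was 0.90 without hepatocyte replicate 2 (adjusted p = 0.015).

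Immediate early and heat shock genes leaned lower, with 11 of 18 tested genes lower and 2 higher (median −2.96), but 5, 7 and 6 were lower without assembloid replicates 1, 2 and 3. Fos was at 6.24, 6.71 and 3.76 in the assembloids and 644, 57.5 and 73.1 in the hepatocytes (log2 fold change −5.53, SE 1.09, edgeR adjusted p = 0.0085). For Fos the log2 fold change was −3.55 without hepatocyte replicate 1. Hepatocyte replicate 1 was by far the highest for Fos. Dusp1, a phosphatase of stress kinases, was at 27.2, 15.5 and 28.4 against 462, 236 and 158 (log2 fold change −3.59, edgeR adjusted p = 0.0019). Ier3, which modulates cell death, was at 80.3, 114 and 79.9 against 0.653, 1.28 and 1.25 (log2 fold change 6.44, edgeR adjusted p = 0.00014). Klf6, a zinc finger factor, was at 98.1, 101 and 64.2 against 16.9, 8.55 and 8.52 (log2 fold change 2.95, edgeR adjusted p = 0.0013).

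**Figure D5:**
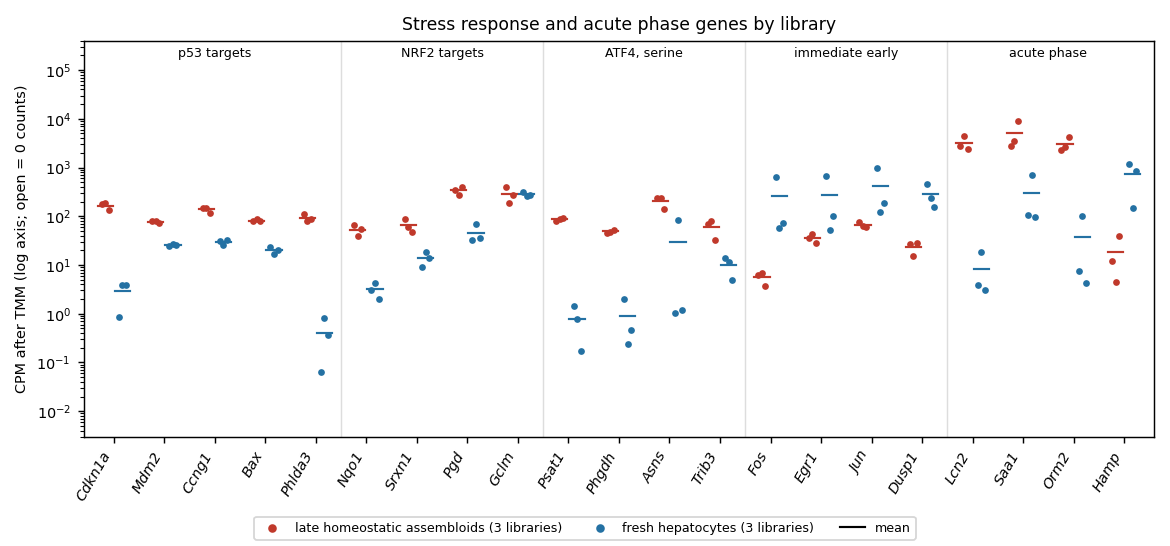
Each point is the CPM of 1 library on a log axis, with red for the 3 late homeostatic assembloid libraries, blue for the 3 fresh hepatocyte libraries and bars for means. The p53 targets shown, Nqo1, Lcn2 and Psat1 stand higher in red without overlap, Gclm overlaps, Fos and Dusp1 stand lower, and 1 hepatocyte library lies well above the others for Fos, Egr1 and Jun.

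Epithelial keratins and junction genes went both ways, with 6 of 23 tested genes higher, 7 lower and 10 not past the threshold. Krt8, a keratin of hepatocytes and ducts, was at 1557, 1676 and 684 in the assembloids and 272, 410.4 and 290.1 in the hepatocytes (log2 fold change 2.01, edgeR adjusted p = 0.0068). Its partner Krt18 was at 1316, 1302 and 553 against 341, 402 and 309 (log2 fold change 1.59, edgeR adjusted p = 0.012). For Krt18 the log2 fold change was 1.48 without hepatocyte replicate 3 (adjusted p = 0.052). Gjb1, the main gap junction protein of hepatocytes, was lower, at 261, 264 and 212 against 802, 1203 and 1009.6 (log2 fold change −2.03, edgeR adjusted p = 0.00079). Ceacam1, of the canalicular membrane, was at 45.2, 44.3 and 51.4 against 236, 244 and 214 (log2 fold change −2.30, edgeR adjusted p = 0.00017). Dpp4, a peptidase of the same membrane, was at 30.9, 16.2 and 43.03 against 159, 152 and 144 (log2 fold change −2.34, edgeR adjusted p = 0.0030). Tjp1, or ZO-1, was at 35.6, 30.9 and 27.98 against 29.3, 24.1 and 22.5 and did not pass (log2 fold change 0.32, edgeR adjusted p = 0.16). Of 23 tested cell cycle genes 2 were higher and 1 lower, a smaller share than the 37.2% of all genes tested, and 4 were higher without hepatocyte replicate 1 or 2. Mki67, the proliferation marker, was at 1.38, 0.479 and 1.13 against 0.316, 1.11 and 0.602 with overlapping groups (log2 fold change 0.57, edgeR adjusted p = 0.52). Ccnd2, a cyclin of the G1 phase, was at 90.3, 75.9 and 46.1 against 0.968, 6.15 and 3.901 (log2 fold change 4.28, SE 0.66, edgeR adjusted p = 0.0037). Ccnd1, another of these cyclins, was the lower gene, at 16.3, 11.5 and 4.86 against 102, 14.4 and 104 (log2 fold change −2.75, edgeR adjusted p = 0.031). For Ccnd1 the log2 fold change was −3.16 without assembloid replicate 1 (adjusted p = 0.062), −2.79 without assembloid replicate 2 (adjusted p = 0.095), −2.41 without assembloid replicate 3 (adjusted p = 0.089), −2.44 without hepatocyte replicate 1 (adjusted p = 0.068) and −2.44 without hepatocyte replicate 3 (adjusted p = 0.083).

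The 15 highest folds without overlap, taken where log2 CPM averaged 5 or more, included Slc7a11, Lcn2, Spp1, Psat1, Ier3, Cbr3 and Phlda3, given above. Ly6d, a GPI-anchored surface protein (ENSMUSG00000034634, GRCm39 chr15:74633902-74635597), was at 731, 619 and 694 in the assembloids and 0.232, 0.777 and 0.313 in the hepatocytes (log2 fold change 10.65, SE 0.52, edgeR adjusted p = 0.00014). For Ly6d the log2 fold change was 11.28 without hepatocyte replicate 2. Cd63, a tetraspanin of late endosomes, was at 465, 521 and 641 against 0.821, 2.905 and 2.65 (log2 fold change 8.01, edgeR adjusted p = 0.00028). Tmsb10, a thymosin that binds actin, was at 449, 432 and 296 against 0.779, 4.63 and 3.54 (log2 fold change 7.05, edgeR adjusted p = 0.00078). Fabp4, the fatty acid carrier of fat cells, was at 93.00, 117 and 152 against 0.358, 2.03 and 1.64 (log2 fold change 6.52, edgeR adjusted p = 0.00073). The 15 lowest included Igfbp2, Cyp2c54, Cyp2e1, Sds, Elovl3 and Slco1a1, given above. Car3, or carbonic anhydrase 3 (ENSMUSG00000027559, GRCm39 chr3:14928489-14937595), was at 0.436, 5.88 and 0 against 10175, 6853 and 11141 (log2 fold change −12.11, SE 2.00, edgeR adjusted p = 0.0046). For Car3 the log2 fold change was −15.24 without assembloid replicate 2. Sult2a8, a bile acid sulphotransferase, was at 0.436, 0.876 and 0.311 against 878, 899.6 and 1144 (log2 fold change −10.79, edgeR adjusted p = 0.00011). Ces3a, a carboxylesterase, was at 2.41, 0.529 and 1.99 against 2756, 2827 and 2859 (log2 fold change −10.74, edgeR adjusted p = 0.00022). Major urinary protein genes took 5 of the 15 lowest places, and their reads may be split between near-identical copies, so no value is given for a single copy.

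Some genes were bounded closely instead. Of 397 list genes whose log2 CPM averaged 5 or more, 76 (19.1%) had a 95% interval of the log2 fold change within −1 and 1, of which 69 did not pass, 1 was higher and 6 were lower. Among the narrowest intervals were those of Uqcrc2, a subunit of respiratory complex III, from −0.89 to −0.33, cytochrome c (Cycs), from −0.49 to 0.08, the immunoproteasome gene Psmb8, from −0.24 to 0.41, and the chaperone calreticulin (Calr), from −0.38 to 0.28. Uqcrc2 passed as lower (115, 108.8 and 109.9 against 162, 171 and 177, edgeR adjusted p = 0.0077). It did not pass with library totals alone, and Cycs and Calr then changed sign.

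MM HepOrgs of 2 weeks are the nearest condition without added duct and mesenchymal cells, and their values are set beside those of the assembloids without a test, because the cultures were kept for different times and both comparisons would share the same hepatocyte libraries. Scaled over 27 libraries, Alb was at 7137 ± 2828 CPM in MM HepOrgs, 8250.0 ± 1493 in the assembloids and 31090.0 ± 12890.0 in the hepatocytes (SD, n = 3 each). Cyp2e1 was at 186.4 ± 189.9, 13.2 ± 18.5 and 13040.0 ± 3475 CPM, and Cdkn1a at 201.7 ± 39.2, 206.3 ± 36.1 and 3.74 ± 2.30 CPM. Col1a1 was at 20.2 ± 21.4, 61.6 ± 10.0 and 1.28 ± 1.93 CPM. The MM HepOrg means of Alb and Cdkn1a lay on the side of the assembloids. That of Cyp2e1 lay above the assembloid mean and far below the hepatocyte mean. That of Col1a1 lay between the assembloids and the hepatocytes. For Cyp2e1 and Col1a1 the SD was above the MM HepOrg mean, so no side is given for either gene. The reporter genes had no count in MM HepOrgs.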

How the data were processed

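Bulk RNA-seq libraries (SMARTseq2, paired-end) were aligned by the authors with STAR to GRCm39 and summarised with featureCounts, and the deposited table gives whole-number counts and, on a scale that the authors derived from them, TPM for each gene and library. Its gene length lay within 5% of the whole gene span for 80.8% of genes, so TPM was used only in alternatives. The table holds 37 libraries, of which 10 that match no label were not used.

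Counts were tested with edgeR 4.0.16 in R 4.3.3 (TMM, filterByExpr with a minimum count of 10, quasi-likelihood test, Benjamini-Hochberg over all genes tested, threshold 0.05), with 2 groups of 3 libraries. The scripts were tested on simulated data with 200 changed genes. There edgeR recovered 8.5% of these genes at a log2 change of 1 and 83% at a log2 change of 2. The share of changed genes was far below the share called in the data. Alternatives were other scalings, filters, DESeq2 1.42.0, limma 3.58.1 on log2(TPM + 1 or + 0.1) for genes at 1 TPM in 3 libraries, fits over 15 or 27 libraries, a replicate block and leaving out each library. Groups of 3 cannot reach an exact permutation p under 0.1, so single values were not tested by permutation. Where every library of 1 group had at most 3 counts, each was set to 3 counts for a bound on the fold, which covers counting error only. Where a fold moved more than 1.5 times or a call changed without 1 library, that value is given, except for Cldn4 and Kdr, whose fitted folds rest on at most 3 counts in 1 group and are not printed. Other fits without 1 library can also leave few or no counts in 1 group, and their folds are then not measured sizes.

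Genes were named by rule: per list up to 4 highest and 4 lowest past the threshold, members not past it, genes the study uses as markers, the 15 highest and 15 lowest folds, the narrowest intervals and the reporters. A few genes that meet it are not reported here. Members and lists were chosen with earlier results of these data known. Cyp2f2, Hp, Igf1, Mdm2 and Slc10a1 fall outside the rule and were chosen after their values were seen. Promoters are from RefSeq tables.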

Additional observations from a re-analysis of the deposited data

Results flagged for a closer look

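The reporter genes that mark added cells had counts only in the assembloids. eGFP had 24, 33 and 855 counts and tdTomato 86, 52 and 2224 counts in assembloid replicates 1, 2 and 3, with 0 in every hepatocyte library. They were listed for a closer look because they belong to no comparison of mouse genes and lay above the level in the hepatocytes. Replicate 3 held more reporter counts than replicates 1 and 2, although Krt19 and Krt7 were highest in replicate 1. The cause was not tested.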

How the results depend on the processing

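With all 6 libraries 4725 genes passed the threshold (2349 higher, 2376 lower). Fits without 1 library passed 3063 to 5232 genes, with 1502 to 2619 higher and 1544 to 2613 lower, the fewest without assembloid replicates 1 and 2. Of the 4725 genes, 2966 to 4296 (62.8 to 90.9%) also passed in these fits. The fit over 15 libraries passed 681 (423 higher, 258 lower) and that over 27 libraries 1930 (1111 and 819). Leaving out 1-week homeostatic assembloid replicate 2, chosen after seeing the data, gave 3950 and 4949. On log2(TPM + 1) and log2(TPM + 0.1), 961 and 956 were lower. DESeq2 passed 5533 (2705 and 2828), no filter on low counts 4590 and at least 10 counts in every library 3727. A fit with a replicate block passed 3591 (1799 and 1792), but same-numbered libraries did not deviate together (correlations −0.10, 0.07 and −0.02), and the numbers were not taken as pairs. The cause of these differences was not tested.

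Of the 161 genes named, 144 passed. The replicate block ended 6 of these calls (Acta2, Adamts5, Ccnd1, Cyp3a11, Herpud1 and Nkd1), library totals 7 (Abcc2, Adamts5, Herpud1, Hes1, Nkd1, Shmt2 and Uqcrc2), log2(TPM + 1) 7 (Abcc2, Ccnd1, Herpud1, Hes1, Hnf4a, Shmt2 and Uqcrc2), the 15-library fit 77 and the 27-library fit 46, and DESeq2 none. A change of sign occurred only in genes that had not passed. With library totals the log2 fold changes of Calr and Cycs were 0.239 and 0.082, with upper quartile scaling that of Calr was 0.043, and on log2(TPM + 1) and log2(TPM + 0.1) those of Calr were 0.377 and 0.378, of Cycs 0.215 and 0.216 and of Fbp1 0.023 and 0.023. Leaving out 1 library gave −0.069 to 0.505 for Abcb4, −0.151 to 0.53 for Glul, −0.064 to 1.077 for Pdgfra and −0.036 to 0.138 for Psmb8.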

Other observations

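Of 15 tested interferon-stimulated genes 5 were higher and 1 lower (median 0.45). The share that passed was near the 37.2% of all genes tested (18.5% higher and 18.7% lower). Without assembloid replicate 1 only 2 were higher, and 3 without assembloid replicate 2 or 3 or hepatocyte replicate 1 or 3. Usp18, which dampens interferon signalling, was at 40.2, 39.4 and 40.97 CPM in the assembloids and 3.41, 12.9 and 2.504 in the hepatocytes (log2 fold change 2.69, edgeR adjusted p = 0.014). For Usp18 the log2 fold change was 3.75 without hepatocyte replicate 2. Zbp1, a sensor of nucleic acids, was at 6.797, 5.82 and 10.8 against 2.04, 2.16 and 1.32 (log2 fold change 2.08, edgeR adjusted p = 0.0048). Of 11 tested MHC class I genes 2 were lower and none higher, beside 18.7% lower and 18.5% higher of all genes tested. None was lower without any 1 assembloid replicate or without hepatocyte replicate 1 or 3, and 2 were higher and 2 lower without hepatocyte replicate 2. Tapbp, which loads peptides onto class I molecules, was at 179, 148 and 182 against 158, 169.6 and 119, overlapped between the groups and did not pass (log2 fold change 0.19, edgeR adjusted p = 0.44).

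Targets of YAP, a factor that responds to cell shape, had 3 of 13 tested genes higher and 1 lower (median 0.26), a share below the 37.2% of all genes tested. Ccn2, a matricellular growth factor, was at 93.99, 61.8 and 42.1 CPM against 0.779, 1.42 and 5.06 (log2 fold change 4.76, edgeR adjusted p = 0.0039). For Ccn2 the log2 fold change was 5.90 without hepatocyte replicate 3. Nuak2, a kinase of the same list, was at 5.79, 3.998 and 2.52 against 13.1, 13.1 and 14.04 (log2 fold change −1.70, edgeR adjusted p = 0.0064). Genes of the TGF-beta pathway went both ways, with 4 of 16 higher and 4 lower (median 0.44), 9 higher with library totals alone, 7 higher with DESeq2, and 3 higher and 2 lower without assembloid replicate 1 or 2. Ltbp3, which holds latent TGF-beta, was at 14.4, 15.2 and 11.4 against 0.0632, 0.709 and 0.385 (log2 fold change 5.21, edgeR adjusted p = 0.0021). For Ltbp3 the log2 fold change was 5.95 without hepatocyte replicate 2. The inhibitor Smad6 was at 0.526, 0.3305 and 0.647 against 3.39, 2.09 and 2.46 (log2 fold change −2.40, edgeR adjusted p = 0.0059). Of 10 tested Notch pathway genes 2 were higher and 3 lower, and 1 was lower with library totals alone. Jag1, a ligand of Notch, was at 6.15, 4.28 and 3.21 against 1.33, 0.844 and 1.28 (log2 fold change 1.98, edgeR adjusted p = 0.0074). The target gene Hes1 was at 15.5, 13.1 and 10.9 against 57.3, 20.4 and 25.3 (log2 fold change −1.38, edgeR adjusted p = 0.033). For Hes1 the log2 fold change was −1.52 without assembloid replicate 1 (adjusted p = 0.074), −1.37 without assembloid replicate 2 (adjusted p = 0.099), −1.27 without assembloid replicate 3 (adjusted p = 0.10) and −0.80 without hepatocyte replicate 1.

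Laminin chains of the matrix list also differed among themselves. Lama5 was at 13.5, 14.1 and 12.4 CPM against 0.589, 0.946 and 0.458 (log2 fold change 4.34, edgeR adjusted p = 0.00030). Lama3 was at 3.56, 1.19 and 2.11 against 10.7, 7.13 and 15.1 (log2 fold change −2.26, edgeR adjusted p = 0.010). In all, 6 of 20 tested genes of other matrix proteins were higher and 3 lower, with 5 higher and 1 lower without assembloid replicate 1 or 2 and 8 higher and 1 lower with library totals alone.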
